A study of Mus musculus with 12 samples.

Results

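The genes described here are 10 markers of the arterial and venous ends of the vascular tree, out of 21638 genes in the deposited table. They were chosen by name, but with earlier results of these data known. Of the 10, 6 are arterial (Bmx, Gkn3, Sema3g, Efnb2, Gja4 and Gja5) and 4 are venous (Nr2f2, Ephb4, Lcn2 and Il1r1). Their levels were compared over 4 genotype groups of 3 libraries each, made from endothelial cells of the adult mouse brain cortex. The cells had been sorted for the endothelial surface protein CD31 and against the platelet protein CD41 and the leukocyte protein CD45.

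The groups were WT, Hdac2 ECKO, Ezh2 ECKO and beta-catenin GOF. Hdac2 ECKO mice were Hdac2lox/lox:Cdh5CreERT2 and Ezh2 ECKO mice were Ezh2lox/lox:Cdh5CreERT2. In both, a tamoxifen-dependent Cre recombinase driven by the endothelial Cdh5 gene removes the floxed gene. Beta-catenin GOF mice were Ctnnb1lox/lox:Cdh5CreERT2, in which the same Cre makes beta-catenin constitutively active. These mice received tamoxifen in 5 doses of 75 mg per kg, and brains were taken 2 months later. The labels do not say whether WT mice carried the Cre or received tamoxifen, nor whether each library came from its own mouse. The p-values therefore measure the spread between these libraries, which may be technical. Cre in every endothelial cell does not separate arteries, capillaries and veins, and neither did the sort.

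Along the brain vasculature, endothelial cells change gradually from arterial through capillary to venous, a pattern called zonation. Arterial identity is set by VEGF and Notch signalling together with SOX factors, whereas the nuclear receptor encoded by Nr2f2 keeps veins from taking up the Notch programme. The transmembrane ligand Efnb2 on arteries and its receptor Ephb4 on veins are the classical pair that keeps the boundary between them. In bulk RNA of this kind, fewer cells of a vessel type and less RNA per cell of that type cannot be told apart.

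All 10 are protein-coding genes. In GENCODE M21 on the mouse build GRCm38, the arterial genes are Bmx at chrX:164192842-164258193 (minus strand), Gkn3 at chr6:87383256-87388935 (minus strand), Sema3g at chr14:31217860-31230352 (plus strand), Efnb2 at chr8:8617434-8661242 (minus strand), Gja4 at chr4:127311421-127314039 (minus strand) and Gja5 at chr3:96904693-97077416 (plus strand). The venous genes are Nr2f2 at chr7:70351944-70366735 (minus strand), Ephb4 at chr5:137350109-137378669 (plus strand), Lcn2 at chr2:32384633-32388252 (minus strand) and Il1r1 at chr1:40225080-40317257 (plus strand). The table holds 1 value per gene and library, so isoforms were not separated.

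The 250 bases before the transcription start are shown for a pair of arterial and a pair of venous genes. Gkn3 and Gja4 were the arterial genes that lay furthest below WT in the labelled Ezh2 ECKO libraries. Lcn2 and Il1r1 were venous genes that shared their 2 highest libraries. In labelled Ezh2 ECKO replicate 2, however, Lcn2 was high while Il1r1 lay inside the WT range. The sequences are RefSeq promoter windows of the mouse build GRCm38.p6, read 5′ to 3′ on the strand of the gene. Windows were found for 10 of 10 genes. Capitals mark matches, on either strand, to TGGGAA (RBPJ, the Notch effector), GTAAACA (forkhead), CTTTGA (core of the TCF/LEF site), TGACCT (nuclear receptor half-site), CAGGAA (ETS core) or ATTGT (SOX core). The Gkn3 window lies at chr6:87388936-87389185 on the minus strand, Gja4 at chr4:127314040-127314289 on the minus strand, Lcn2 at chr2:32387740-32387989 on the minus strand and Il1r1 at chr1:40224830-40225079 on the plus strand (the more upstream of its 2 windows).
Gkn3: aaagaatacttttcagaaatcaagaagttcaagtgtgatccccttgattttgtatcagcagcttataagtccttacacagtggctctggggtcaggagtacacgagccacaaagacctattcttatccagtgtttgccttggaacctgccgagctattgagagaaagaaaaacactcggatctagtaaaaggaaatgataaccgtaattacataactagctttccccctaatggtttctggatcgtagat
Gja4: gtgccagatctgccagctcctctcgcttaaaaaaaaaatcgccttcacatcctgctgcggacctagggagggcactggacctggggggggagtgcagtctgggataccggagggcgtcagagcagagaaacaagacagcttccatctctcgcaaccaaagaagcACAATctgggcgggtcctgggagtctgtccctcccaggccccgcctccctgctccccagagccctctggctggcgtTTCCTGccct
Lcn2: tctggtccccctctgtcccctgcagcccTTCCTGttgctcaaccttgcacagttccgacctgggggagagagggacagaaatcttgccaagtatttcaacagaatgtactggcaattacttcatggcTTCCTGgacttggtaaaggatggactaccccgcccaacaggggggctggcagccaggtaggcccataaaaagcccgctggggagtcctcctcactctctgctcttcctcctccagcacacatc
Il1r1: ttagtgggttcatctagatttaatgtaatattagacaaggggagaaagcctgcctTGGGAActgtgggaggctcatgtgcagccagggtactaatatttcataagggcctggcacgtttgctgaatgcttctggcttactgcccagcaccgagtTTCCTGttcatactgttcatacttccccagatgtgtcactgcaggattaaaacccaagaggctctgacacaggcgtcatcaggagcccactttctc

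The Gja4 window held a reverse-strand ETS core 10 bases before the start and a reverse-strand SOX core 86 bases before it. The Lcn2 window held 2 reverse-strand ETS cores, 222 and 123 bases before the start. The Il1r1 window held TGGGAA 195 bases and a reverse-strand ETS core 96 bases before the start, and the Gkn3 window held none of the 6 motifs. Among the other genes, Bmx had 4 matches (the RBPJ letters, the ETS core and the SOX core in both orientations) and Nr2f2 had 1, the TCF/LEF core 114 bases before the start. Sema3g, Efnb2, Gja5 and Ephb4 had 0. These are short motifs: among 32851 RefSeq windows of the same length, 25.7% held the ETS core, 27.7% the SOX core, 21.6% the RBPJ letters, 14.0% the nuclear receptor half-site, 13.8% the TCF/LEF core and 3.17% the forkhead letters. A match describes the letters only. The genes also differed in base composition. The Efnb2 window was 72.0% G or C with 27 CpG dinucleotides, more than 91.4% of windows held. The Nr2f2 window held 1 CpG against a median of 6. For Nr2f2 and Gja5, however, the bases just after the window were not found whole in a GENCODE M21 transcript of the gene. The Gja5 window, at chr3:97032152-97032401, lies inside the annotated gene, and Nr2f2 has 6 annotated transcripts. The windows of these genes may therefore not stand for their main start.

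Libraries held 24781070 to 36109975 counts and 13922 to 17091 genes above 0. All 10 genes passed the filter on low counts (a mean of at least 10 over the 12 libraries), as did 12577 genes in all, and the smallest count of any of the 10 in any library was 33 (Gja5). Levels are given as CPM, counts per 1000000 of the scaled library total. An expected count of 3, about the most that an observed 0 allows, corresponds to 0.0792 to 0.118 CPM depending on the library. The summed level of 10 endothelial markers was 33615 to 43121 CPM in WT, 27499 to 30818 in Hdac2 ECKO, 32617 to 46195 in the labelled Ezh2 ECKO libraries and 40138 to 47981 in beta-catenin GOF. The Hdac2 ECKO sums all lay below WT, but a sum mostly follows its most abundant genes. Singly, 6 of the 10 markers had positive and 4 negative log2 fold changes in Hdac2 ECKO against WT (median 0.19). Of these 10, 2 lay wholly above WT and 3 wholly below. The targeted genes came next. Hdac2 stood at 129 ± 30.1 CPM in WT and 96.5 ± 15.2 in Hdac2 ECKO (SD, n = 3, edgeR adjusted p = 0.22). The Hdac2 ECKO libraries (82.2 to 112 CPM) overlapped WT (104 to 163). Hdac2 was as low in beta-catenin GOF, at 96.2 ± 10.1 CPM, so its RNA level does not check the Hdac2 ECKO label. Ezh2 stood at 6.75 ± 3.52 CPM in WT and 8.92 ± 3.36 in the labelled Ezh2 ECKO libraries (SD, n = 3, edgeR adjusted p = 0.61), so every direction below holds for libraries that carry that label. Ctnnb1 stood at 654 ± 138 CPM in WT and 583 ± 109 in beta-catenin GOF (edgeR adjusted p = 0.96), and an RNA level does not test constitutive activation of the protein. Which exons are floxed is not given, and a gene-level count also holds reads from outside a deleted part. On the first 2 principal components of all genes, labelled Ezh2 ECKO replicate 2 stood apart on the second, at -90.7, with the other libraries between -33.3 and 28.1.

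No marker passed the test between any of the groups. With edgeR's quasi-likelihood test and Benjamini-Hochberg adjustment over all 12577 genes, 0 of 10 reached an adjusted p under 0.05 in Hdac2 ECKO against WT, where 9.2% of all tested genes did. In the labelled Ezh2 ECKO libraries against WT the count was 0 of 10 beside 1.03% of all genes, and in beta-catenin GOF against WT 0 of 10 beside 0%. At an unadjusted p under 0.05 the counts were 5, 4 and 2 of 10, beside 33.1%, 24.7% and 6.07% of all genes. The test of any difference among the 4 groups called 0 of 10 beside 0.731% of all genes (unadjusted, Gja4 and Gkn3, 2 of 10 beside 26.4%), and its smallest adjusted p was 0.10 for Gja4. Other tools called some: DESeq2 called Il1r1 in Hdac2 ECKO against WT, Gkn3 and Gja4 in the labelled Ezh2 ECKO libraries against WT, and no marker in beta-catenin GOF. Limma with voom and sample quality weights called 3, 4 and 0 in the same order, and limma-trend called 0 in each. The 3 comparisons share the WT libraries, so their values are given side by side and not as independent results.

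**Figure D1:**
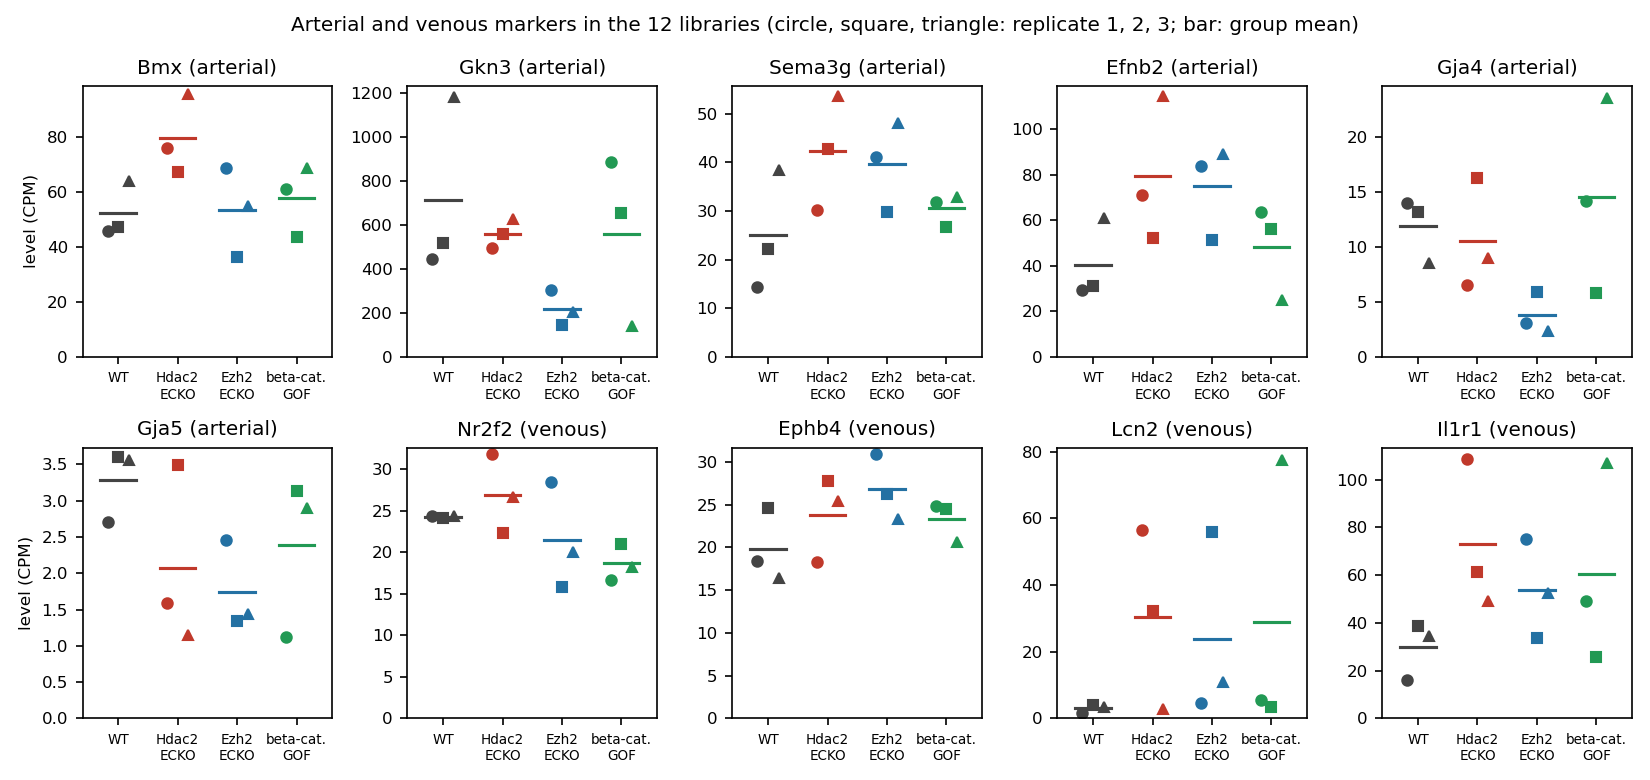
Level of each marker in the 12 libraries, in CPM on a linear axis starting at 0, with 1 panel per gene; circles, squares and triangles are replicates 1, 2 and 3 and the bar is the group mean. Gkn3 and Gja4 lie below all WT libraries in the group labelled Ezh2 ECKO, and Lcn2 is above 30 CPM in 4 mutant libraries and below 12 in the other 8 libraries.

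Per kilobase of gene length, the only scale here on which genes can be compared, Gkn3 was by far the most abundant marker in WT. Gkn3, a secreted gastrokine and a strong marker of brain arteries, stood at 834 ± 474 CPM per kb (SD, n = 3, range 520 to 1379). Bmx followed at 16.9 ± 3.26 CPM per kb, and its lowest library lay above the highest of every gene after it. Gja4 (7.06 CPM per kb), Efnb2 (5.91), Sema3g (5.51), Il1r1 (4.68) and Ephb4 (4.27) had overlapping ranges in WT, so their order is not resolved. Nr2f2 stood at 2.82 ± 0.0121 CPM per kb, below all Ephb4 libraries but within the range of Il1r1. Lcn2 (1.14) and Gja5 (0.573) were lowest, and their ranges overlapped. In Hdac2 ECKO Lcn2 averaged 11.6 CPM per kb, in the labelled Ezh2 ECKO libraries 9.09 and in beta-catenin GOF 11.0, each a mean carried by 1 or 2 libraries.

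Bmx, a non-receptor tyrosine kinase of the Tec family found in large arteries, was measured at 45.8, 47.2 and 64.0 CPM in WT and at 76.0, 67.5 and 95.7 in Hdac2 ECKO. It stood at 68.9, 36.3 and 54.8 CPM in the labelled Ezh2 ECKO libraries and at 61.1, 43.7 and 68.6 in beta-catenin GOF. All 3 Hdac2 ECKO libraries lay above all WT libraries, and the other groups overlapped WT. The log2 fold change in Hdac2 ECKO was 0.61 ± 0.28 (SE), or 1.52-fold, which did not pass (edgeR adjusted p = 0.15). Groups that do not overlap were common in this comparison: 37.8% of all tested genes had such values, and 2 of the 10 markers did (Bmx and Il1r1).

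Gkn3 was measured at 445, 517 and 1180.3 CPM in WT and at 494, 560 and 626 in Hdac2 ECKO (the WT replicate 3 value is the highest of all 12). It stood at 303, 143 and 205 CPM in the labelled Ezh2 ECKO libraries and at 888, 653 and 139.7 in beta-catenin GOF. The labelled Ezh2 ECKO libraries were all below all WT and all Hdac2 ECKO libraries, and beta-catenin GOF replicate 3 was as low as they were. The log2 fold change against WT was -1.72 ± 0.52 in the labelled Ezh2 ECKO libraries, 3.30-fold lower, with a 95% interval of -2.83 to -0.61. It did not pass (edgeR adjusted p = 0.083), while DESeq2 gave an adjusted p of 0.011. Without WT replicate 3 the difference was -1.15 (edgeR adjusted p = 0.16). Gkn3 in Hdac2 ECKO differed from WT by -0.35 ± 0.51 and in beta-catenin GOF by -0.35 ± 0.51, and without WT replicate 3 both signs turned (0.22 in each).

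Gja4, the gap junction protein connexin 37 of arterial endothelium, gave 14.0, 13.2 and 8.55 CPM in WT and 6.51, 16.3 and 9.02 in Hdac2 ECKO. It gave 3.05, 5.90 and 2.37 CPM in the labelled Ezh2 ECKO libraries and 14.2, 5.86 and 23.6 in beta-catenin GOF. As with Gkn3, each labelled Ezh2 ECKO library was below each WT and each Hdac2 ECKO library, and the other groups overlapped WT. The log2 fold change against WT was -1.66 ± 0.51, 3.16-fold lower, with a 95% interval of -2.73 to -0.58 and an edgeR adjusted p of 0.083. DESeq2 gave an adjusted p of 0.025, and edgeR passed the threshold without WT replicate 3 (-1.85, adjusted p = 0.049) and without labelled Ezh2 ECKO replicate 2 (-2.13, adjusted p = 0.020). In beta-catenin GOF Gja4 spread 4.03 times between its lowest and highest library, and its difference from WT, 0.29 ± 0.49, turned to -0.25 without replicate 3 of that group.

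Gja5, connexin 40, the other arterial gap junction protein, was measured at 2.71, 3.61 and 3.56 CPM in WT. It stood at 1.59, 3.49 and 1.14 CPM in Hdac2 ECKO, at 2.46, 1.34 and 1.44 in the labelled Ezh2 ECKO libraries and at 1.13, 3.14 and 2.90 in beta-catenin GOF. The labelled Ezh2 ECKO libraries lay below all WT libraries, at a log2 fold change of -0.91 ± 0.62 (edgeR adjusted p = 0.37). Against WT, 22% of all tested genes had groups that do not overlap, as did 4 of the 10 markers: Gkn3, Gja4 and Gja5 were lower and Lcn2 was higher. The Gja5 gene overlaps Gpr89 and antisense transcripts on the opposite strand. Whether counting used strand is not stated, so reads of these genes cannot be told apart with certainty.

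Efnb2, the arterial ephrin ligand, was measured at 29.4, 31.1 and 61.0 CPM in WT and at 71.3, 52.2 and 115 in Hdac2 ECKO. It stood at 84.0, 51.5 and 89.2 CPM in the labelled Ezh2 ECKO libraries and at 63.6, 56.3 and 24.9 in beta-catenin GOF. WT replicate 3 lay inside the range of every mutant group. The log2 fold changes were 0.97 ± 0.40 in Hdac2 ECKO (1.96-fold, edgeR adjusted p = 0.11) and 0.89 ± 0.40 in the labelled Ezh2 ECKO libraries (1.85-fold, adjusted p = 0.18). Without WT replicate 3 the Hdac2 ECKO difference was 1.39 and passed (edgeR adjusted p = 0.044). In beta-catenin GOF the difference was 0.25 ± 0.40.

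Sema3g, a secreted arterial semaphorin, ran close to Efnb2. It was measured at 14.4, 22.2 and 38.4 CPM in WT, at 30.3, 42.7 and 53.7 in Hdac2 ECKO, at 41.2, 29.8 and 48.1 in the labelled Ezh2 ECKO libraries and at 31.9, 26.8 and 32.9 in beta-catenin GOF. Again WT replicate 3 was inside or above the range of each mutant group, and WT replicates 1 and 2 were below all 9 mutant libraries. The log2 fold changes were 0.76 ± 0.34 in Hdac2 ECKO (edgeR adjusted p = 0.14), 0.67 ± 0.34 in the labelled Ezh2 ECKO libraries (adjusted p = 0.23) and 0.29 ± 0.34 in beta-catenin GOF. Without WT replicate 3 the first was 1.20 and passed (edgeR adjusted p = 0.034).

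The fitted differences of the arterial genes had both signs. In the labelled Ezh2 ECKO libraries, Gkn3, Gja4 and Gja5 had negative and Bmx, Sema3g and Efnb2 positive fitted differences from WT, the median over the 6 being -0.44 beside 0.05 over all tested genes. In Hdac2 ECKO the same 3 were negative and the same 3 positive, with a median of 0.22 beside 0.10. In beta-catenin GOF 4 were positive and 2 negative, with a median of 0.20 beside 0.01. None of these differences passed the edgeR test, and the signs of Gkn3 and Gja4 in Hdac2 ECKO and of Bmx in the group labelled Ezh2 ECKO were not stable: with library-size scaling Gja4 in Hdac2 ECKO was 0.10.

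**Figure D2:**
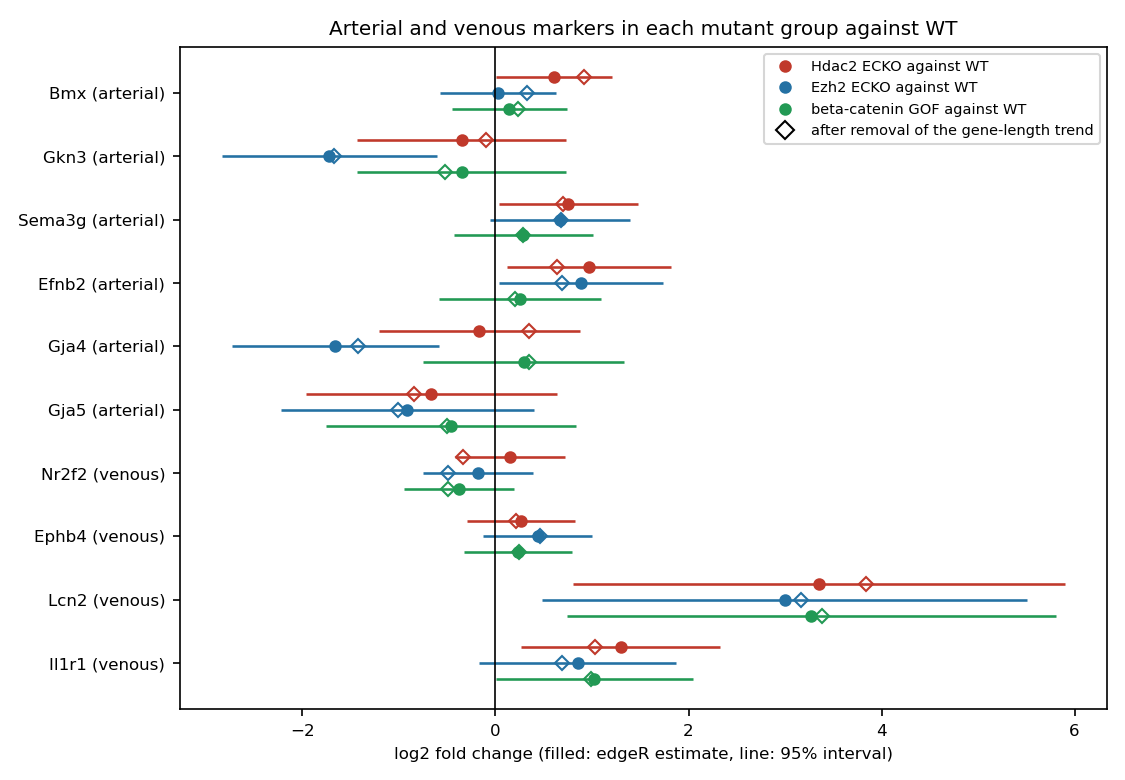
Log2 fold change of each marker in each mutant group against WT; filled points are edgeR estimates, lines are 95% intervals and open diamonds are estimates after the trend with gene length was removed. Gkn3 and Gja4 have intervals below 0 in the group labelled Ezh2 ECKO, and the Lcn2 intervals are the widest of the 10 genes in each group.

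Nr2f2, the nuclear receptor also called COUP-TFII that maintains venous identity, had the smallest spread of the 10 in WT, at 24.3, 24.2 and 24.4 CPM. It was 31.8, 22.3 and 26.6 CPM in Hdac2 ECKO, 28.5, 15.8 and 19.97 in the labelled Ezh2 ECKO libraries and 16.7, 20.98 and 18.3 in beta-catenin GOF. All 3 beta-catenin GOF libraries lay below all WT libraries and below all Hdac2 ECKO libraries. The difference from WT was -0.38 ± 0.27 on the log2 scale, with a 95% interval of -0.95 to 0.19 (edgeR adjusted p = 0.91). It was the only marker of the 10, so 1 of 10, whose values did not overlap in that comparison, beside 12.7% of all tested genes. Against Hdac2 ECKO it was -0.53 ± 0.27 (edgeR adjusted p = 0.27). An uncharacterised transcript, B130024G19Rik, overlaps Nr2f2 on the opposite strand.

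Ephb4, the venous receptor of Efnb2, gave 18.5, 24.6 and 16.4 CPM in WT. It gave 18.3, 27.7 and 25.5 CPM in Hdac2 ECKO, then 31.0, 26.2 and 23.4 in the labelled Ezh2 ECKO libraries and 24.8, 24.5 and 20.6 in beta-catenin GOF. All groups overlapped. The log2 fold changes against WT were 0.27, 0.44 and 0.23, and the 95% intervals reached up to 0.83, 1.00 and 0.80, so increases up to these sizes cannot be told from no difference here.

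Lcn2, lipocalin 2, an iron-siderophore carrier of the acute-phase response and a marker of brain venules, had the largest spread. It stood at 1.53, 3.99 and 3.42 CPM in WT. In Hdac2 ECKO it was 56.5, 32.3 and 2.77 CPM, in the labelled Ezh2 ECKO libraries 4.54, 56.0 and 10.9, and in beta-catenin GOF 5.59, 3.54 and 77.5. Each mutant group thus had at least 1 library above 50 CPM and at least 1 below 6, and the highest library exceeded the lowest by 20.4, 12.3 and 21.9 times, against 2.61 times in WT. Only the labelled Ezh2 ECKO libraries lay entirely above WT. The fitted log2 fold changes were 3.35 ± 1.20 (10.2-fold), 3.00 ± 1.18 (7.98-fold) and 3.27 ± 1.19 (9.67-fold), and their edgeR adjusted p-values were 0.075, 0.14 and 0.73.

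Single libraries moved these Lcn2 values, most in beta-catenin GOF and least in Hdac2 ECKO. Without beta-catenin GOF replicate 3 the difference of that group from WT was 0.61 in place of 3.27. Without labelled Ezh2 ECKO replicate 2 that group's difference was 1.37 in place of 3.00, and the Hdac2 ECKO difference, 3.35, then passed (edgeR adjusted p = 0.042). The Hdac2 ECKO difference was 2.57 without replicate 1 of that group, 3.26 without replicate 2 and 3.87 without replicate 3.

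Il1r1, the signalling receptor of interleukin 1, gave 16.0, 38.6 and 34.7 CPM in WT and 109, 61.2 and 49.2 in Hdac2 ECKO. It gave 74.9, 33.8 and 52.7 CPM in the labelled Ezh2 ECKO libraries and 49.0, 25.6 and 107 in beta-catenin GOF. All Hdac2 ECKO libraries were above all WT libraries, and the other groups overlapped WT. The log2 fold change in Hdac2 ECKO was 1.30 ± 0.48 (2.45-fold), with a 95% interval of 0.27 to 2.33 (edgeR adjusted p = 0.085, DESeq2 adjusted p = 0.044). In the labelled Ezh2 ECKO libraries it was 0.85 ± 0.48 and in beta-catenin GOF 1.03 ± 0.48, which was 0.33 without replicate 3 of that group.

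The 2 libraries highest in Lcn2, beta-catenin GOF replicate 3 and Hdac2 ECKO replicate 1, were also the 2 highest in Il1r1. Labelled Ezh2 ECKO replicate 2, with the third-highest Lcn2, had an Il1r1 value inside the WT range. Averaged on the log2 CPM scale, the 6 arterial genes exceeded the 4 venous genes by 1.36, 0.81 and 1.51 in the WT libraries. That difference of levels was -0.50, 0.30 and 1.18 in Hdac2 ECKO, 0.29, -0.58 and 0.04 in the labelled Ezh2 ECKO libraries and 0.92, 1.05 and -0.56 in beta-catenin GOF. The 3 libraries with a negative value were the 3 with the highest Lcn2, which is itself 1 of the 4 venous genes.

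The gene with the pattern most like Lcn2 over the 12 libraries was Lrg1, a secreted acute-phase glycoprotein of venules (Pearson r = 0.90 of log2 CPM), and Ackr1, the chemokine-binding receptor that defines venules, was the third (r = 0.81). Lrg1 stood at 10.9, 7.96 and 0.14 CPM in Hdac2 ECKO, at 2.40, 11.9 and 1.58 in the labelled Ezh2 ECKO libraries and at 1.30, 1.00 and 66.1 in beta-catenin GOF, and WT libraries held 0.07 to 1.01. Ackr1 was 153, 43.9 and 10.1 CPM in Hdac2 ECKO, 13.9, 31.9 and 3.02 in the labelled Ezh2 ECKO libraries and 15.0, 0.90 and 189 in beta-catenin GOF, with 0.21 to 5.13 in WT. For both genes the highest library of each group was the one highest in Lcn2. The venous coagulation gene Vwf was also highest in beta-catenin GOF replicate 3, at 261 CPM, where the other 11 libraries held 60.4 to 136.

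Lcn2 is also made by neutrophils, so their genes were read beside it. The summed level of 9 neutrophil markers was 3.32 to 25.5 CPM in WT, 0.36 to 18.1 in Hdac2 ECKO, 0.50 to 186 in the labelled Ezh2 ECKO libraries and 0.53 to 1.74 in beta-catenin GOF. The Hdac2 ECKO value of 18.1 CPM, inside the WT range, was in replicate 1, which had the most Lcn2 of that group, and the other 2 libraries held 0.36 and 0.69. In labelled Ezh2 ECKO replicate 2, S100a8 stood at 79.3 CPM, S100a9 at 69.4 and Retnlg at 33.3, while Csf3r, Camp and Ltf were at 0 there. The part of neutrophil RNA in the Lcn2 values of these 2 libraries was not tested. In beta-catenin GOF replicate 3, the library with the highest Lcn2, S100a8 was 0.17 CPM and Ngp, Camp, Retnlg, Mmp8, Csf3r and Cxcr2 were at 0.

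**Figure D3:**
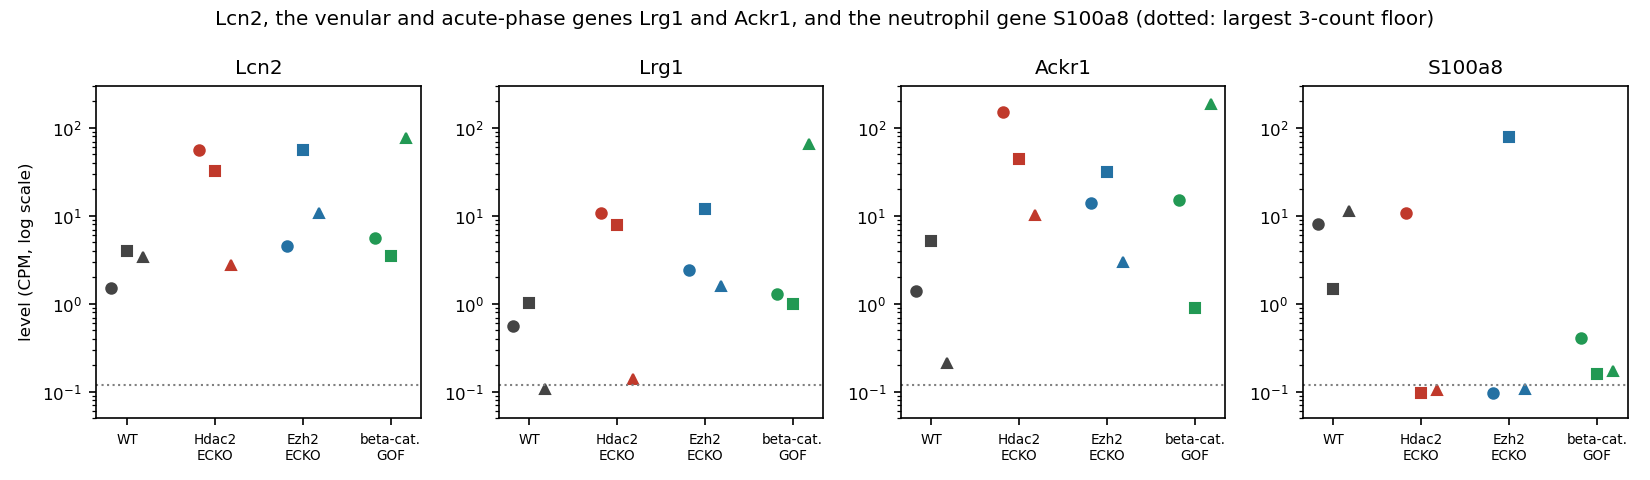
Level of Lcn2, Lrg1, Ackr1 and the neutrophil gene S100a8 in the 12 libraries, in CPM on a log axis; circles, squares and triangles are replicates 1, 2 and 3, the dotted line is the highest 3-count floor and values under a library's own floor are drawn at that floor. Lcn2, Lrg1 and Ackr1 are high in the same library of each mutant group, and S100a8 is high in 1 of these, labelled Ezh2 ECKO replicate 2.

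Between mutant groups, 0 of 10 markers passed in Hdac2 ECKO against the labelled Ezh2 ECKO libraries (0.0239% of all tested genes did), in beta-catenin GOF against Hdac2 ECKO (0.0716%) or in beta-catenin GOF against the labelled Ezh2 ECKO libraries (0.0636%). At an unadjusted p under 0.05 the edgeR counts were 2, 0 and 2 of 10 beside 8.19%, 21.1% and 13.2% of all genes, DESeq2 called 0, 0 and 1, and limma with voom and quality weights called 0, 2 and 0. Gkn3 was higher in Hdac2 ECKO than in the labelled Ezh2 ECKO libraries by 1.37 ± 0.52 and Gja4 by 1.49 ± 0.50 on the log2 scale, with no overlap of libraries (edgeR adjusted p = 0.55 and 0.52). Groups without overlap were found for 2, 1 and 0 of the 10 markers in the 3 comparisons, beside 13.2%, 32% and 16.6% of all genes. Gja4 was higher in beta-catenin GOF than in the labelled Ezh2 ECKO libraries by 1.95 ± 0.51 (edgeR adjusted p = 0.21, DESeq2 adjusted p = 0.025), and it passed in edgeR without labelled Ezh2 ECKO replicate 2 (2.42, adjusted p = 0.035).

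Fold changes in these libraries ran with gene length. In Hdac2 ECKO against WT the median log2 fold change was -0.52 in the fifth of tested genes with the shortest models and 0.66 in the fifth with the longest. In the labelled Ezh2 ECKO libraries the medians were -0.21 and 0.43, and in beta-catenin GOF -0.01 and 0.13. The markers span this range: Gkn3 (856 bases) is longer than 2.27% of tested genes and Gja4 (1685 bases) than 10.2%, whereas Efnb2 (6855 bases) exceeds 75.0% and Nr2f2 (8625 bases) 85.1%. After the trend was removed, Gkn3 and Gja4 in the labelled Ezh2 ECKO libraries stood at -1.67 and -1.43, and Lcn2 at 3.16. In Hdac2 ECKO, Bmx moved from 0.61 to 0.92 and Efnb2 from 0.97 to 0.64. The small differences of Gja4 and Nr2f2 there turned sign, to 0.35 and -0.33, and none of the 10 passed after the removal in edgeR. Values after the removal are given for the 10 markers only. The genes and medians of the other lists below are given without it, and their part in the length trend was not tested.

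**Figure D4:**
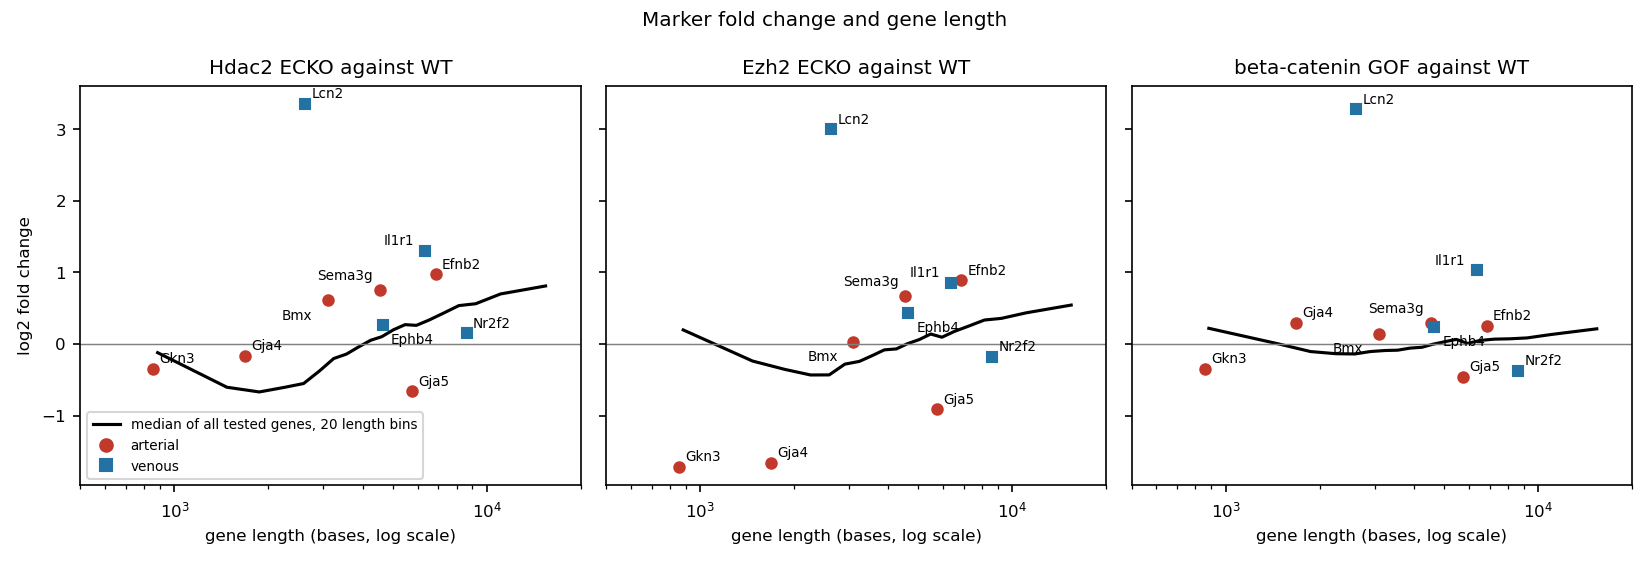
Log2 fold change against WT by gene length (bases, log scale) in the 3 mutant groups; red circles are arterial and blue squares venous markers, and the black line is the median of all tested genes in 20 length bins. Lcn2 lies above the line by more than 2 log2 units in every group, and Gkn3 and Gja4 lie below it by more than 1 in the group labelled Ezh2 ECKO.

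Among the marker pairs, Sema3g and Efnb2 had the highest Pearson r of log2 CPM over the 12 libraries (r = 0.73, Spearman rho = 0.67), followed by Lcn2 and Il1r1 (0.66 and 0.66) and Bmx and Il1r1 (0.65 and 0.80). Arterial genes also ran opposite to each other: Efnb2 and Gja4 had r = -0.68 (rho = -0.57) and Efnb2 and Gja5 -0.58 (rho = -0.52). The ligand and receptor pair Efnb2 and Ephb4 had r = 0.30 (rho = 0.19). These values describe 45 pairs over libraries that share groups, depth and the length trend, and carry no test. Over all tested genes, the pattern most like Efnb2 was that of Notch1, the arterial Notch receptor (r = 0.96), then Mef2d and Pmel (0.95 each). Sema3g was most like Arhgef15, Fam214b and Nos3 (0.94, 0.91 and 0.91), Bmx most like Usp6nl, Fbln2 and Ralgapa2 (0.91, 0.90 and 0.89) and Il1r1 most like Sbno2, Etv6 and Fam13a (0.92, 0.91 and 0.89). Gkn3 was closest to Cd27 (0.93), Gja4 to Pitpnm1 (0.91), Gja5 to Traf7 (0.90), Nr2f2 to Ripor2 (0.92) and Ephb4 to Cnnm4 (0.93).

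**Figure D5:**
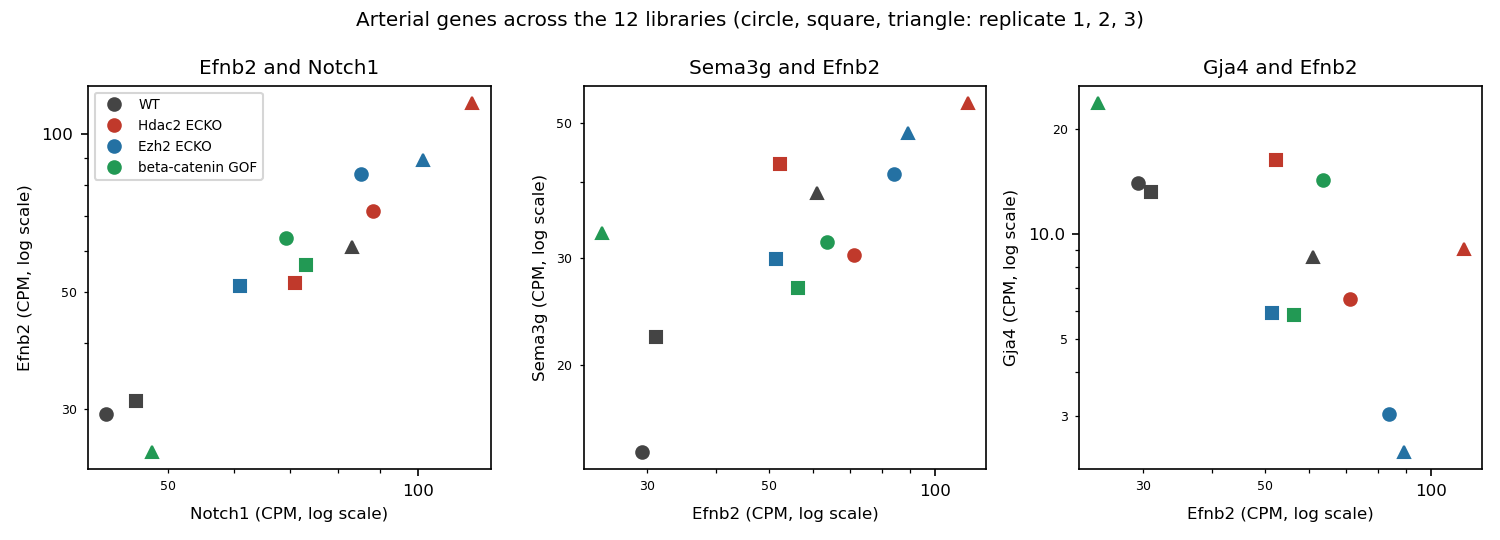
Levels of Efnb2 against Notch1, Sema3g against Efnb2 and Gja4 against Efnb2 in the 12 libraries, in CPM on log axes; colours are groups and circles, squares and triangles are replicates 1, 2 and 3. Efnb2 runs with Notch1 and with Sema3g, while Gja4 and Efnb2 run opposite (r = -0.68), although the library with most Efnb2, Hdac2 ECKO replicate 3, has 9.02 CPM of Gja4, inside the WT range.

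Genes upstream of the arterial programme did not pass either. Of 19 tested regulators (Notch ligands and receptors, their HEY and HES targets, SOX and forkhead factors), 0 rose and 0 fell in each mutant group against WT by edgeR (6, 5 and 1 at an unadjusted p under 0.05, in the order Hdac2 ECKO, labelled Ezh2 ECKO, beta-catenin GOF, beside 33.1%, 24.7% and 6.07% of all tested genes). Their medians were 0.45, 0.41 and 0.13 in that order, which is kept below, beside 0.10, 0.05 and 0.01 over all tested genes. The closest to the threshold were Foxc1 in Hdac2 ECKO (0.95 ± 0.32, edgeR adjusted p = 0.062) and Notch4 in the labelled Ezh2 ECKO libraries (1.00 ± 0.29, adjusted p = 0.078). Notch1, whose pattern was most like Efnb2, stood at 42.1, 45.7 and 83.4 CPM in WT. It was 88.3, 71.1 and 116 CPM in Hdac2 ECKO, 85.4, 61.0 and 101 in the labelled Ezh2 ECKO libraries and 69.4, 73.3 and 47.8 in beta-catenin GOF.

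Of 22 other arterial markers, 0 passed in each group by edgeR, with medians of 0.13, -0.05 and -0.06. At an unadjusted p under 0.05 the counts were 6, 4 and 3, beside 33.1%, 24.7% and 6.07% of all tested genes. Clu, clusterin, came closest in Hdac2 ECKO (-1.21 ± 0.37, edgeR adjusted p = 0.053) and was -1.41 in the labelled Ezh2 ECKO libraries (adjusted p = 0.067). Alpl, alkaline phosphatase, stood at -1.41 ± 0.36 in the labelled Ezh2 ECKO libraries (edgeR adjusted p = 0.060), and Stmn2 at -1.23 in Hdac2 ECKO (adjusted p = 0.055). In the group labelled Ezh2 ECKO, Alpl and Clu lay below all WT libraries and Unc5b, a netrin receptor, lay above them, at 27.6, 25.5 and 37.2 CPM against 11.0, 19.9 and 15.0 in WT. The other 19 overlapped WT, so 3 of 22 did not overlap, beside 22% of all tested genes. Unc5b also lay above all WT libraries in beta-catenin GOF (1.08 ± 0.29, edgeR adjusted p = 0.54), 1 of 22 beside 12.7% of all tested genes. Alpl stood at -1.31 ± 0.36 in beta-catenin GOF but overlapped WT (edgeR adjusted p = 0.54).

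Of 19 other venous markers tested, Cpe, carboxypeptidase E, rose in Hdac2 ECKO (1.87 ± 0.39, edgeR adjusted p = 0.032) and Ctsc, the protease cathepsin C, fell (-1.08 ± 0.27, adjusted p = 0.036). These 2 of 19 stand beside 9.2% of all tested genes, a share near theirs. Ctla2a, a cysteine protease inhibitor, rose in the labelled Ezh2 ECKO libraries (1.69 ± 0.37, edgeR adjusted p = 0.048), 1 of 19 beside 1.03% of all genes, and 0 passed in beta-catenin GOF. At an unadjusted p under 0.05 the counts were 7, 3 and 7 of 19, beside 33.1%, 24.7% and 6.07% of all genes. The medians were 0.52, 0.14 and 0.37. Cpe was 50.04, 37.7 and 30.5 CPM in WT and 201, 122 and 108 in Hdac2 ECKO, with its highest mutant value in the same Hdac2 ECKO library as Lcn2. In beta-catenin GOF it reached 162 CPM in replicate 3 and 50.8 and 65.9 in the others.

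Capillary markers, which lie between the 2 ends, gave 3 of 16 higher in Hdac2 ECKO, beside 9.2% of all tested genes called there: Hmcn1, a basement membrane hemicentin (1.53 ± 0.32, edgeR adjusted p = 0.032), Slc7a1, a cationic amino acid carrier (1.13 ± 0.32, adjusted p = 0.042), and Slc16a1, a lactate carrier (0.94 ± 0.28). Hmcn1 also rose in the labelled Ezh2 ECKO libraries (1.54 ± 0.32, edgeR adjusted p = 0.047), 0 fell in either group, and 0 passed in beta-catenin GOF. At an unadjusted p under 0.05 the counts were 8, 5 and 3 of 16, beside the same 33.1%, 24.7% and 6.07%. The medians were 0.32, 0.40 and 0.25.

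Of 11 tested relatives of Efnb2, Ephb4 and the connexins, Efna1, an ephrin of the GPI-anchored class, fell in Hdac2 ECKO, from 349, 203 and 178 CPM in WT to 42.3, 82.6 and 63.3 (-1.95 ± 0.35, edgeR adjusted p = 0.032). That is 1 of 11, beside 9.2% of all tested genes. It stood at 69.7, 120.2 and 68.3 CPM in the labelled Ezh2 ECKO libraries, below all WT libraries (-1.50, edgeR adjusted p = 0.052). Gja1, connexin 43, was 0.95 ± 0.30 in the latter (edgeR adjusted p = 0.088). No other relative passed in any group, and the medians of the 11 were 0.94, 0.83 and 0.51. Under 0.05 unadjusted were 5, 4 and 4, Efna1 included, beside 33.1%, 24.7% and 6.07% of all tested genes.

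Of 16 tested partners of Il1r1 and Lcn2 (interleukin 1 adaptors, NF-kappaB feedback and acute-phase genes), 2 fell in Hdac2 ECKO, a share near the 9.2% of all tested genes called there. They were Nfkbia, the NF-kappaB inhibitor (-1.20 ± 0.33, edgeR adjusted p = 0.040), and Cebpb, an acute-phase transcription factor (-1.66 ± 0.49, adjusted p = 0.047). None rose, and 0 passed in the other groups. Unadjusted, the counts were 6, 5 and 2 of 16 in the order above, beside 33.1%, 24.7% and 6.07% of all tested genes. Medians were 0.01, 0.41 and 0.12.

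Other cell types moved with some groups. Of 9 tested pericyte markers 4 rose in Hdac2 ECKO (Pdgfrb, Higd1b, Cspg4 and Rgs5), where 9.2% of all tested genes were called. The endothelial sum lay below all WT libraries there, although 6 of its 10 markers had positive log2 fold changes. The summed pericyte level was 38.1 to 62.3 CPM in WT, 85.0 to 166 in Hdac2 ECKO, 40.6 to 49.4 in the labelled Ezh2 ECKO libraries and 88.5 to 183 in beta-catenin GOF. Of 9 smooth muscle markers 2 rose in Hdac2 ECKO (Myh11 and Myocd, beside the same 9.2%), and their sum was 84.8 to 156, 139 to 347, 64.1 to 82.6 and 109 to 542 CPM in the same order. Smooth muscle coats arteries. In the group labelled Ezh2 ECKO its sum lay below all WT libraries, with 6 of the 9 markers negative and 3 positive. There 2 of the 9 lay wholly below WT and 1 wholly above. In beta-catenin GOF the sum was 542, 109 and 115 CPM where Gkn3 was 888, 653 and 139.7. In Hdac2 ECKO the sum reached 347 CPM while all Gkn3 values lay inside the WT range. Erythroid markers summed to 36137 to 61383 CPM in WT, 401 to 21679 in Hdac2 ECKO, 2519 to 6664 in the labelled Ezh2 ECKO libraries and 510 to 35374 in beta-catenin GOF. Of 6 erythroid genes 1, Alas2, fell in Hdac2 ECKO, beside the same 9.2%. At an unadjusted p under 0.05 the edgeR counts were 3, 6 and 0 of 6 for erythroid markers. They were 6, 0 and 6 of 9 for pericyte and 6, 3 and 5 of 9 for smooth muscle markers. All stand beside 33.1%, 24.7% and 6.07% of all tested genes. The part of these cells in the marker differences was not tested.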

How the data were processed

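RNA from sorted cells was amplified with SMART-Seq v4 PLUS and sequenced as read pairs, per the labels' protocols. FastQC, cutadapt, STAR, featureCounts and DESeq2 and the build mm10 are named in the submitters' processing notes, without versions. The deposited table is titled as normalized, but its values are whole-number counts per gene with unequal totals. They hold an excess of even numbers (79.5% to 84.0% of values from 10 to 50), and they were analysed as raw counts. The deposited gene lengths were used for values per kilobase. Gene positions in the table matched GENCODE M21 on GRCm38 for 98.4% of rows.

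Counts were scaled by TMM, genes with a mean count under 10 over the 12 libraries were left out, and 1 edgeR 4.0.16 quasi-likelihood model (R 4.3.3) with 4 group terms gave 6 contrasts and a test over all groups, with p-values adjusted over all 12577 genes by Benjamini-Hochberg. SE is the size of the log2 fold change divided by the root of F. CPM divides counts by the scaled total of tested genes. The 10 markers were named with every value. Of other gene lists, genes with adjusted p under 0.05 (up to 6 a list and comparison), and otherwise up to 2 with the smallest p, were eligible to be named, Vwf, Notch1 and Unc5b being named after their values were seen. Likeness was ranked as the 3 genes of highest Pearson r. Members and lists were chosen with earlier results of these data known. Alternatives were median-ratio or library-size scaling, other filters, DESeq2 1.42.0, limma 3.58.1 (voom with sample quality weights, trend with prior counts of 2 and 0.5), fits of 2 groups, a replicate block, removal of the length trend, and each library left out. The scripts were tested on simulated data. In a simulation of Hdac2 ECKO against WT with 200 of 12577 genes changed, edgeR recovered 10% of 2-fold and 61% of 4-fold changes. The changed genes were drawn at random and were fewer than the 1157 called in the real comparison. These rates therefore do not give the power for the 10 markers. Libraries held 24781070 to 36109975 counts, but the smallest count in a library was 33 for Gja5, 44 for Lcn2 and 66 for Gja4. What limits precision for these genes was not tested. Reads are mates without molecular identifiers, so count floors cover counting error only.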

Additional observations from a re-analysis of the deposited data

How the results depend on the processing

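Of 720 refits of single markers against WT (12 alternatives and 12 libraries left out), 676 kept their direction and side of the threshold, 26 passed it and 18 turned sign. Many left-out libraries, here and between mutants, were in neither group compared. The fold change could hardly move in such refits, so these counts overstate stability. Between mutants 13 of 240 turned sign for Hdac2 ECKO against labelled Ezh2 ECKO, 27 for beta-catenin GOF against Hdac2 ECKO and 15 for beta-catenin GOF against labelled Ezh2 ECKO. Against 0 of 10 markers called by edgeR, the count for Hdac2 ECKO against WT was 2 with library-size scaling (Lcn2, Il1r1), 3 with no filter on low counts (Efnb2, Lcn2, Il1r1), 1 with DESeq2, 3 with voom and sample quality weights (Bmx, Sema3g, Efnb2), 1 with only the 2 groups compared (Lcn2) and 1 with the replicate block and the length trend removed (Bmx). For the labelled Ezh2 ECKO libraries against WT it was 3 with no filter (Gkn3, Gja4, Lcn2), 2 with DESeq2 and 4 with voom and quality weights (Gkn3, Sema3g, Efnb2, Gja4). For beta-catenin GOF against WT it was 1 with no filter (Lcn2). Between mutants it was 2 with no filter for Hdac2 ECKO against labelled Ezh2 ECKO, 2 with voom and quality weights for beta-catenin GOF against Hdac2 ECKO (Bmx, Efnb2), and 2 with no filter and 1 with DESeq2 for beta-catenin GOF against labelled Ezh2 ECKO. Over all 4 groups it was 5 with no filter, 2 with DESeq2 and 4 with voom and quality weights. The cause of these differences was not tested. The median-ratio scaling, the filter at a mean of 50, limma-trend, and the replicate block alone gave 0 in every comparison. The replicate numbers were not taken as pairs, because in none of 6 comparisons were all same-numbered libraries correlated over 0.1 (range -0.14 to 0.27). Some mutant libraries of the same number did deviate together. In Hdac2 ECKO against labelled Ezh2 ECKO r was 0.10, 0.27 and 0.06 for replicates 1, 2 and 3. In beta-catenin GOF against Hdac2 ECKO 2 pairs exceeded 0.1, and in each comparison with WT 0 did.

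With 1 library left out, the counts ranged from 0 to 2 for Hdac2 ECKO against WT (WT replicate 3 gave Sema3g and Efnb2, labelled Ezh2 ECKO replicate 2 gave Lcn2). They ranged from 0 to 1 for labelled Ezh2 ECKO against WT (WT replicate 3 or labelled Ezh2 ECKO replicate 2, Gja4), and from 0 to 1 for beta-catenin GOF against labelled Ezh2 ECKO and over all groups (labelled Ezh2 ECKO replicate 2, Gja4). Against WT, small differences turned sign. In Hdac2 ECKO, Gja4 was 0.10 with library-size scaling, 0.35 with the length trend removed and 0.34 with the replicate block as well. Gkn3 was 0.067 with voom and quality weights, and Nr2f2 was -0.33 with the length trend removed, with or without the block. In the labelled Ezh2 ECKO libraries, Bmx was -0.00480 and -0.00484 with limma-trend. In beta-catenin GOF, Gja4 was -0.24 with voom and quality weights. Leaving out 1 library gave ranges in Hdac2 ECKO of -0.60 to 0.22 for Gkn3, -0.67 to 0.077 for Gja4 and -0.0076 to 0.22 for Nr2f2. It gave -0.22 to 0.24 for Bmx in the labelled Ezh2 ECKO libraries, and in beta-catenin GOF -0.85 to 0.22 for Gkn3 and -0.25 to 0.67 for Gja4. Lcn2 ranged from 0.61 to 3.80 in beta-catenin GOF, 1.37 to 3.46 in labelled Ezh2 ECKO and 2.57 to 3.87 in Hdac2 ECKO against WT, and from -2.38 to 1.90 in beta-catenin GOF against labelled Ezh2 ECKO, -2.74 to 0.71 in beta-catenin GOF against Hdac2 ECKO and -0.41 to 1.98 in Hdac2 ECKO against labelled Ezh2 ECKO.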
